A study of Mus musculus with 6 samples.

Results

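Under heat shock, 361 genomic regions held an HSF1 peak in striatal cells with expanded huntingtin (Q111 cells) and in no other library of the series. They were found by merging the peaks of 4 HSF1 ChIP-seq lists wherever they shared at least 1 base, which gave 6577 regions, and keeping those whose peaks all came from the heat-shocked Q111 library. Regions starting on chromosome 13 from 21 to 24 Mb, a dense cluster of peaks, were left out. Each of the 361 regions consists of 1 Q111 peak, and they are called Q111-only regions here. The regions were thus chosen by the authors' peak calls at 42 °C and 33 °C, and what those calls fix is given as a description. They make up 5.49% of the merged regions and 17.3% of the 2084 Q111 heat shock peaks outside that window, and both shares follow from the selection. The number depends on the length of the lists compared: with the Q7 heat shock list of 6173 peaks trimmed to its 2161 highest-scoring ones, as many as the Q111 list holds, 717 regions or 34.4% of the Q111 peaks were Q111-only, and with a minimum score of 150 in the Q111 list 95 regions or 7.31%.

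The series measured HSF1 occupancy by chromatin immunoprecipitation and sequencing in mouse striatal cell lines: STHdhQ7/Q7, from wild-type HdhQ7/Q7 embryos, and STHdhQ111/Q111, from HdhQ111/Q111 knock-in embryos. Both lines were grown at 33 °C and sampled there without treatment or after 6 hours at 42 °C, with 1 HSF1 library for each of the 4 combinations. The 2 untreated IgG control libraries were not analysed here. Cells were used up to passage 15. Each genotype is represented by 1 line, so genotype, line and library cannot be told apart, and no value below has a replicate error. Read depth is unknown, and it also moves the number and score of peaks.

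HSF1 is the main transcription factor of the heat shock response. In unstressed cells it is largely held inactive by chaperones, and under proteotoxic stress it forms trimers that bind heat shock elements, inverted repeats of the NGAAN unit, in the promoters and enhancers of chaperone genes and at many other sites. Expanded polyglutamine makes huntingtin prone to misfold, and chaperones that HSF1 induces act on such proteins, which is why HSF1 is studied in models of Huntington's disease.

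Most Q111-only regions stood low in their own list. The score is the value the authors deposited for each peak, read as -10 log10 of its p-value. It serves here to order peaks within a list, and the Q111 heat shock list starts at 90. Where scores of different lists stand side by side below, each applies within its own list, since depth is unknown. Q111-only regions had a median score of 118 (95% interval over regions 115 to 122), a 10th percentile of 95.3 and a 90th of 230. The median region scored higher than 21.6% of the list (19.5 to 23.7), and 315 of 361 lay below rank 1080 of 2161. For comparison, the 1463 Q111 peaks at heat-induced regions of both lines, those with a Q7 peak at 42 °C and no peak at 33 °C, had a median score of 212 (197 to 224) and scored above 50.6% of the list. The 260 Q111 peaks at regions already occupied at 33 °C, by a peak of either line or of both, had a median of 636 (527 to 751). The 4375 Q7-only heat shock regions, with peaks of the heat-shocked Q7 library alone, also stood below the middle of their own list. Their median one scored higher than 37.3% of the Q7 list (36.1 to 38.5). These values come from the calls that chose the regions and were not tested.

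The share of Q111 heat shock peaks that were Q111-only fell with each step in score. Among 188 peaks scoring from 90 to 100 it was 43.6% (95% Wilson interval 36.7 to 50.8, counting error only). From 150 to 200 it was 18.3% (14.04 to 23.5), and from 300 to 500 it was 4.58% (2.74 to 7.53). Above 1000, 1 of 169 peaks was Q111-only, or 0.592% (0.105 to 3.28). Among the 500 highest-scoring Q111 peaks 7 were Q111-only, and among the top 1000 there were 38. Unlike the shares above, these ranks run over the whole list, with the 77 peaks of the chromosome 13 window.

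**Figure D1:**
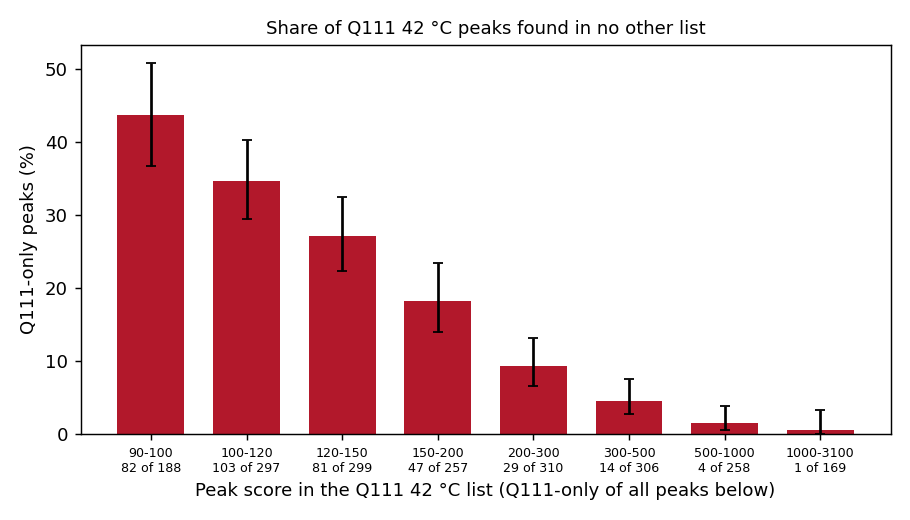
Share of Q111 heat shock peaks found in no other list, by score in the Q111 list, with the window on chromosome 13 left out. Bars give the share in percent, error bars the 95% Wilson interval (counting error only), and the numbers under each bar the Q111-only and all Q111 peaks. The share fell from 43.6% in the lowest class to 0.592% in the highest.

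Few Q111-only regions had high scores, and the leading one stood far above the rest. It lay at chr13:38190590-38191177 (mm9), was 588 bases wide and ranked 110 in the Q111 list with a score of 1297. The nearest Q7 heat shock peak was 320428 bases away and the nearest other Q111 heat shock peak 696018 bases away. The region thus stood alone, with no other peak of any list within 20 kb. The next in score, at chr8:93761101-93761561, reached 644, less than the leading score by more than the whole range of all others. Its nearest Q7 peak, 100380 bases away, stood low in the Q7 list (score 138, rank 4004 of 6173).

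A further 6 of the top 20 lay over 250 kb from any Q7 heat shock peak. The region at chr10:94724617-94724948 scored 611 with a width of 332 bases, and the nearest Q7 peak was 349168 bases away. Both high-scoring regions of chromosome 17 were remote as well, chr17:68324092-68324597 at 501175 bases (score 560) and chr17:69464708-69465252 at 891511 bases (score 467). The most remote of the 20 lay at chr12:96585993-96586610, with a score of 476, a width of 618 bases and 2.94 Mb to the nearest Q7 peak. The X-chromosomal region chrX:91389575-91389862 scored 324 and lay 397422 bases from a Q7 peak. Closest to a Q7 peak among these 6 was chr4:115467597-115468174, which scored 387 and lay 257824 bases away.

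Other regions of the top 20 had a Q7 neighbour close by. The region at chr6:17169438-17170039 (score 476) lay 4538 bases from a Q7 peak of score 185 on one side and 7672 bases from a Q7 peak of score 99.99 on the other. No other Q111 heat shock peak lay within 100 kb of it, so the lines had peaks at different places of the same 20 kb stretch. The same arrangement was seen on chromosome 10, where chr10:116460476-116461058 (score 471) lay 9007 bases from a Q7 peak of score 215 that no Q111 peak overlapped. For chr2:27627588-27627959 (score 453) the nearest Q7 peak was 13207 bases away with a score of 92.4. For chr3:30017161-30017477 (score 356) the Q7 peak at 12083 bases was instead shared by a Q111 peak.

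The 20 highest-scoring regions lay on 13 chromosomes, with a median width of 492.5 bases (242 to 638) and a median distance of 101 kb to the nearest Q7 peak. None of the 20 had a Q7 heat shock peak within 2 kb, and 18 had none within 10 kb. The nearest Q7 peak of 3 of the 20 was itself overlapped by a Q111 peak. Over all 6173 Q7 heat shock peaks that share was 28.7% (27.6 to 29.9), and a difference from it was not tested. Ranks 11 to 20 also included regions at chr11:117601348-117601661 (score 431), chr1:164148874-164149443 (431), chr10:33914267-33914508 (344), chr9:75084061-75084698 (323), chr3:151709813-151710287 (320), chr3:148780153-148780571 (291) and chr6:146403320-146403798 (316).

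At the other end, the scores of Q111-only regions ran down to the start of the list. The lowest, at chr5:67148320-67148651, scored 90.04 and ranked 2159. It was followed by regions at chr1:155151737-155152145 (90.6), chr3:37112484-37112778 (90.7), chr5:143690323-143690773 (90.8) and chr18:12107166-12107444 (90.8).

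Q111-only regions were narrow. Their median width was 365 bases (354 to 377), with quartiles of 307 and 446 and extremes of 134 and 917. Heat-induced Q111 peaks of both lines had a median of 446 bases (435 to 454), and Q111 peaks at regions occupied at 33 °C one of 561 (525 to 585). The whole Q111 heat shock list had a median of 444 bases. Q7-only regions were also narrower than their own list, with a median of 462 bases (457 to 466) against 495. Widths under 300 bases were seen in 23.8% of Q111-only regions (19.7 to 28.5) and 11.5% of heat-induced peaks of both lines (9.95 to 13.2), and widths of 700 bases or more in 3 of 361 and 76 of 1463. Together the Q111-only regions covered 138 kb, or 13.7% of the bases in the Q111 list.

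At like scores the widths of both sets were close. Among peaks scoring from 90 to 100 the median was 344.5 bases for Q111-only regions and 365 for heat-induced peaks of both lines. From 100 to 120 the medians were 355 and 353 bases, from 120 to 150 they were 365 and 392, from 150 to 200 they were 402 and 420, and from 200 to 300 they were 428 and 461.5. In each of these classes the medians of both sets lay within the quartiles of the other. From 300 to 500, with 14 Q111-only regions, the medians were 512 and 479 bases, and from 500 to 1000, with 4, they were 483.5 and 545. Above 1000 the 1 Q111-only region measured 588 bases, against a median of 642.5. Q111-only regions thus had the higher median from 100 to 120 and from 300 to 500, and the lower one in all other classes.

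**Figure D2:**
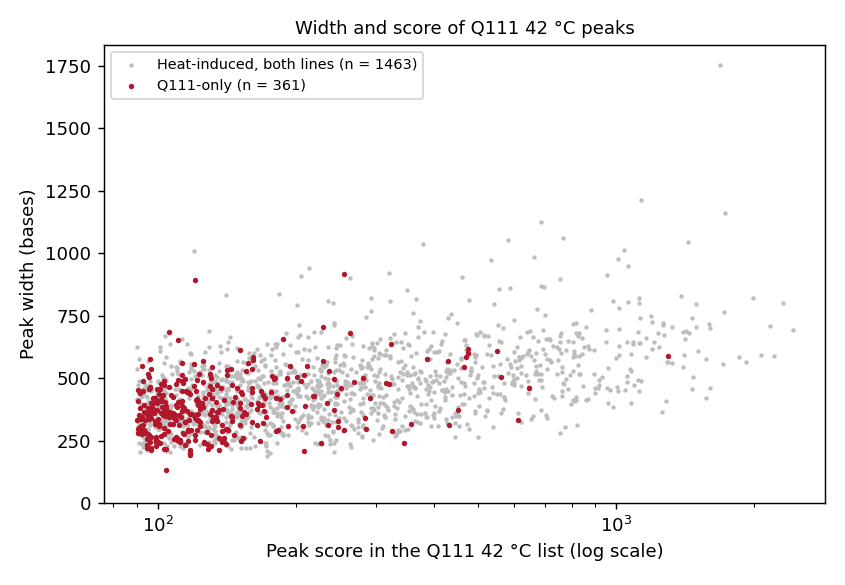
Width in bases against score on a log scale for Q111 heat shock peaks, each point 1 peak. Red points are the 361 Q111-only regions and grey points the 1463 peaks at heat-induced regions of both lines. Red points crowd at scores under 200, where 313 of the 361 lie, and within that range overlap the grey ones in width.

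The widest Q111-only region lay beside strong peaks of both lines. Located at chr17:35104954-35105870, it measured 917 bases and scored 255. A second Q111-only region, chr17:35106292-35106661 with a score of 113, followed 421 bases further on. The pair sat between 2 sites found in both lines. The Q7 peaks there, from 35095941 to 35096970 and from 35108872 to 35109780, were both at 3100, the tied score near the top of the Q7 list. The overlapping Q111 peaks started at 35095958 and 35108885 and scored 1133 and 1119. Between these sites the Q7 list held 1 other peak, from 35098107 to 35098577 with a score of 98.4, which did not touch the Q111-only pair. Both lists thus had a peak at each outer site and differed in the weaker peaks between them. At the outer sites the Q7 peaks shared rank 13 in their list and the Q111 peaks ranked 142 and 150 in theirs. A score of 3100 was also the highest of the Q111 list. Whether it is a fixed upper value of the score was not tested, so rank 13 may not order these peaks.

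A similar layout was seen for the second widest region, at chr2:167602692-167603584, with a width of 893 bases and a score of 121. A Q7 peak of score 853 and an overlapping Q111 peak of score 816 lay 3271 and 3247 bases from it. The others among the 5 widest were at chr1:72610718-72611420 (703 bases), chr15:74757221-74757905 (685 bases) and chr14:23633655-23634333 (679 bases). The narrowest, at chr6:47689867-47690000, measured 134 bases. It was the narrowest peak of the whole Q111 list. Regions of 194, 195, 200 and 207 bases followed, at chr12:58652583-58652776, chr9:45236060-45236254, chr5:21619710-21619909 and chr13:9010942-9011148.

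Q111-only regions lay at widely varying distances from Q7 heat shock peaks. The median distance to the nearest one, edge to edge, was 89375 bases (74164 to 111102), with quartiles of 20613 and 262749 bases. A Q7 peak lay within 2 kb of 22 regions, or 6.09% (4.06 to 9.05), within 10 kb of 62, or 17.2% (13.6 to 21.4), and within 100 kb of 193, or 53.5% (48.3 to 58.5). For 25 regions, or 6.93% of all, no Q7 peak lay within 1 Mb. With the Q7 list trimmed to the length of the Q111 list, the median distance was 230727 bases and 7.39% lay within 10 kb, and with a minimum score of 150 in the Q111 list the median was 138138 bases.

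For heat-induced Q111 peaks of both lines, the next Q7 peak that did not overlap them lay closer, at a median of 49734 bases (43550 to 57731). It was within 10 kb for 23.7% of them (21.6 to 26.0) and within 100 kb for 64.7% (62.2 to 67.1). The 4375 Q7-only heat shock regions outside the window had the next Q7 peak at a median of 52638 bases (49562 to 55760). Their distance to the nearest Q111 heat shock peak was larger, with a median of 208130 bases (197950 to 219115) and 7.66% within 10 kb. The Q111 list searched there holds 2161 peaks and the Q7 list 6173. At Q111 scores under 200, 17.3% of Q111-only regions (13.5 to 21.8) and 25.7% of heat-induced peaks of both lines (22.6 to 29.1) had such a Q7 peak within 10 kb. The intervals cover counting error alone, and peaks of 1 library are not replicates. Since Q111-only regions were chosen for the absence of a Q7 peak, these values are a description and were not tested.

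**Figure D3:**
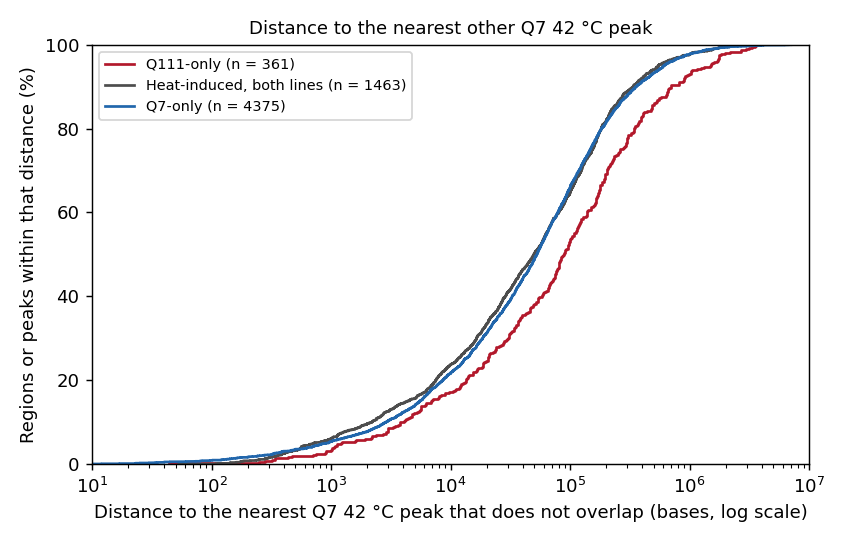
Cumulative share, in percent, of Q111-only regions (red), Q111 peaks at heat-induced regions of both lines (grey) and Q7-only regions (blue) with a Q7 heat shock peak, other than one they overlap, within the distance on the log-scaled x axis in bases. The red line runs to the right of the others, with a median of 89375 bases against 49734 and 52638.

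The distance to other Q111 heat shock peaks differed less between the sets. Its median was 216254 bases for Q111-only regions (170256 to 272284) and 181040 for heat-induced peaks of both lines (166055 to 200094). Another Q111 peak lay within 10 kb of 11.6% of Q111-only regions (8.72 to 15.4) and 11.2% of heat-induced peaks of both lines (9.69 to 12.9). The 33 °C lists were short, with 260 Q7 and 292 Q111 peaks, and the rule left out regions that overlap them. A 33 °C peak of either line lay within 10 kb of 3 Q111-only regions and within 1 Mb of 84.

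The regions nearest to a Q7 peak show how the 1-base rule acted. The closest, at chr5:64899778-64900120 (score 112), was 44 bases from a Q7 peak of score 216 that ended at 64899733. No Q111 peak overlapped that Q7 peak, so the lines had 1 peak each, side by side. The next were at 248 bases at chr8:74827605-74827954, 281 bases at chr7:125505783-125506120, 317 bases at chr5:143690323-143690773 and 337 bases at chr16:93383193-93383577. On chromosomes 7, 8 and 16 the neighbouring Q7 peak was overlapped by a further Q111 peak, at 214, 289 and 390 bases from the Q111-only region. On chromosome 16 that neighbour scored 1010 in the Q111 list and its Q7 counterpart 281, and a Q111 peak at 33 °C lay there too, 434 bases from the Q111-only region.

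Just outside the rule, the Q111 peaks that shared the fewest bases with another list lay at chr13:51944156-51944606 (41 bases, score 90.5) and chr6:134040272-134040647 (50 bases, score 105). The next 3, at chr2:154745681-154745925, chr3:137458957-137459146 and chr1:162031137-162031329, shared 188, 190 and 193 bases, which for the last 2 was their whole width. Of 1723 overlapping Q111 peaks outside the window, 6 shared less than 50% of their own width. On the other side of the border, 7 of the 361 regions lay within 500 bases of a Q7 heat shock peak.

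Where a Q111-only region lay near a Q7 peak, that Q7 peak was often one found in both lines. Within 1 kb this held for 8 of 11 regions, all 11 of which scored at most 139. Within 2 kb the nearest Q7 peak was overlapped by a Q111 peak for 12 of 22 regions, or 54.5% (34.7 to 73.1), and from 2 to 10 kb for 18 of 40, or 45.0% (30.7 to 60.2). From 100 kb to 1 Mb the share was 27.3% (20.6 to 35.1), and over all 6173 Q7 heat shock peaks it was 28.7% (27.6 to 29.9). For heat-induced peaks of both lines, the next Q7 peak was shared in 41.5% of cases within 2 kb (33.8 to 49.8) and in 22.9% from 2 to 10 kb (17.7 to 29.1). Neighbouring Q7 peaks within 2 kb had a median score of 229, and those over 1 Mb away one of 149. Shared Q7 peaks stand higher in their list, and the part of score in this pattern was not tested.

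**Figure D4:**
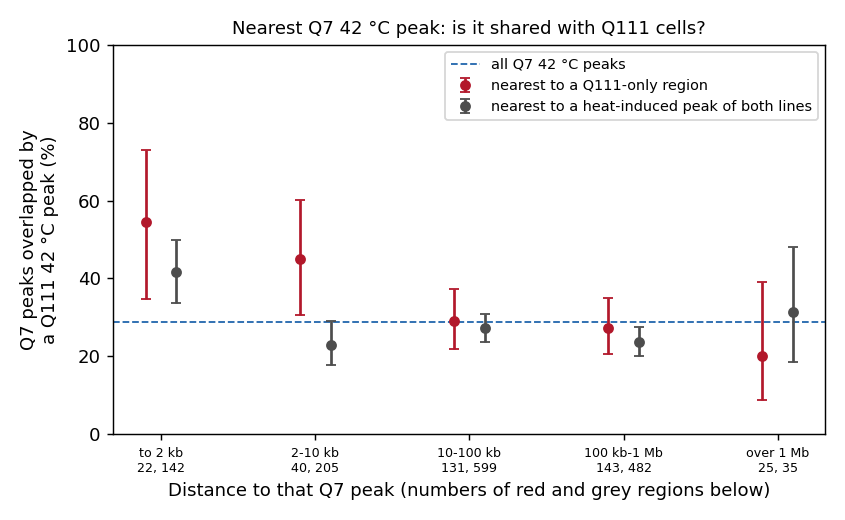
Share, in percent, of nearest Q7 heat shock peaks that a Q111 heat shock peak overlapped, by distance, with 95% Wilson intervals. Red points stand for Q111-only regions, grey points for Q111 peaks at heat-induced regions of both lines (next Q7 peak that does not overlap), and the dashed line for all Q7 heat shock peaks (28.7%). Red values are 54.5% and 45% in the 2 nearest classes and 20% to 29% beyond 10 kb.

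Regions far from any Q7 peak had scores like those of the whole set. The 25 beyond 1 Mb had a median score of 118, the same as all 361. The most remote were the pair chr1:16172524-16172836 (score 111.4) and chr1:16214479-16214837 (score 97.1), at 3.52 and 3.57 Mb from a Q7 peak and 41642 bases from each other. They were followed by regions at chr13:118172470-118172821 (3.33 Mb, score 107) and chr2:98396714-98397140 (3.12 Mb, score 219). The 22 regions within 2 kb of a Q7 peak had a median score of 104 and a highest score of 139, so the high-scoring Q111-only regions lay elsewhere.

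Most Q111-only regions had no other Q111-only region close by. Another one lay within 20 kb of 16 regions, or 4.43% (2.75 to 7.08), and within 100 kb of 36. The 36 formed 18 pairs, and no group of 3 or more with neighbours within 100 kb was found. These counts cover only 361 of the 2084 Q111 peaks outside the window, which by itself makes such neighbours few. Counting every other Q111 heat shock peak, 60 regions, or 16.6% (13.1 to 20.8), had one within 20 kb and 124, or 34.3%, within 100 kb. For heat-induced peaks of both lines these shares were much the same, at 16.5% (14.7 to 18.5) and 35.3% (32.9 to 37.8). The median distance between a region and the next Q111-only one was 1785752 bases. When the genome was cut into 1 Mb tiles, 270 tiles held 1 region, 35 held 2 and none held more than 4. The tiles with 4 were on chromosome 2 from 167 Mb, chromosome 5 from 118 Mb and chromosome 19 from 55 Mb. In this order they held 10, 8 and 7 Q111 heat shock peaks in all, and 22, 8 and 6 Q7 ones.

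The tightest pair consisted of chr3:30403336-30403944 (score 550) and chr3:30404140-30404604 (score 106), 195 bases apart and at least 95324 bases from any Q7 peak. Other pairs less than 10 kb apart began at chr5:118604689-118605019 (1374 bases apart), chr1:164148874-164149443 (3196 bases), chr13:9010942-9011148 (5265 bases), chr12:16843047-16843534 (8264 bases) and the pair on chromosome 17 described above. The pair on chromosome 12 flanked a site of both lines, with a Q111 peak of score 135 from 16847742 and a Q7 peak of score 305 from 16847788. In the pair on chromosome 1 the scores were 431 and 104, and the nearest Q7 peak was 85609 bases away.

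Every autosome and the X chromosome held Q111-only regions, from 7 on chromosome 7 and on the X chromosome to 39 on chromosome 2. Chromosomes 2, 5 (33 regions), 11 (26) and 10 (25) held the most, and these also have long peak lists. As a share of the Q111 heat shock peaks of the chromosome, Q111-only regions ranged from 7% on chromosome 7 (3.43 to 13.7) to 27.7% on chromosome 18 (16.9 to 41.8), where 13 of 47 peaks were Q111-only. Chromosome 14 came next with 26.6% (17.3 to 38.5). The interval of chromosome 7 lay below the 17.3% of all chromosomes, and those of the other 19 chromosomes included that value. No adjustment was made for looking at 20 chromosomes. Chromosome 7 held 362 Q7 heat shock peaks and 100 Q111 ones, and its 7 Q111-only regions had a median score of 177. On chromosome 15 the 22 regions scored at most 156, and on chromosome 16 the 13 regions at most 141.

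**Figure D5:**
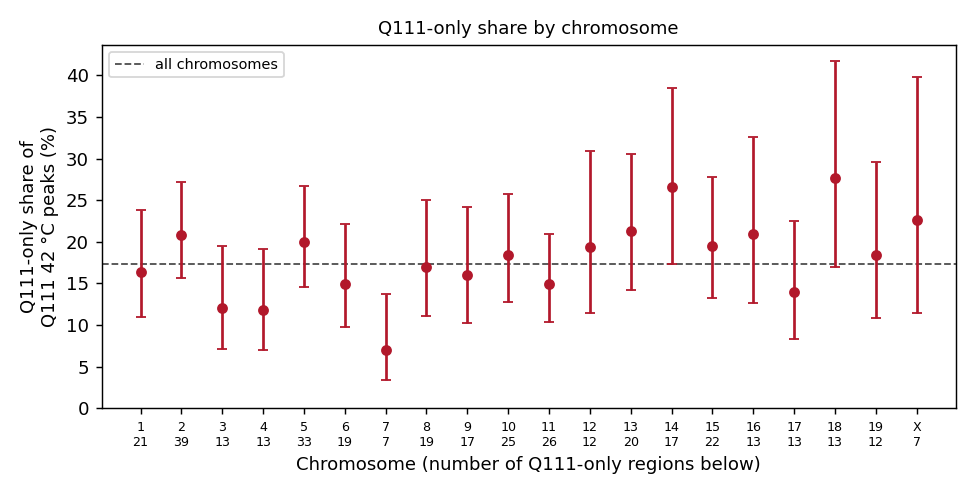
Q111-only regions as a percentage of the Q111 heat shock peaks on each chromosome, with 95% Wilson intervals (counting error only), the window on chromosome 13 left out. The dashed line is the share over all chromosomes, 17.3%, and only the interval of chromosome 7 (7%) lies wholly below it.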

How the data were processed

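The authors deposited 1 peak list per HSF1 library, without a header. Each gives a peak's position, name and score, and peak names carry the MACS prefix. The submitters' processing notes list MACS 1.4.0rc2 and, as genome build, mm9. The score deposited by the authors was read as -10 log10 of the p-value, an inference from MACS output. The sources used here do not give the aligner, background library, filters or depth. Per the labels' protocols, chromatin was precipitated with an HSF-1 antibody, fragments of 200 to 300 bases were selected and libraries were amplified in 18 PCR cycles.

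Lists were merged at a minimum overlap of 1 base in Python 3.11.15 (with scipy 1.17.1, pandas 2.3.3, matplotlib 3.10.9 and numpy 2.4.6), with starts counted from 1. The code was tested on simulated data. Shares carry 95% Wilson intervals and medians 95% intervals from order statistics. With 1 library per group no test between groups was made. Named regions are the 20 highest by score, the 5 widest, nearest to, farthest from a Q7 peak and lowest in score, and groups of 3 or more within 100 kb. Pairs, tiles, narrowest regions and local layouts were chosen after seeing values. The regions and measures were chosen with earlier results of these data known. No mm9 genome or annotation was used here, so regions carry no gene names or sequences, and the planned description of genes and heat shock elements was not made.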

Additional observations from a re-analysis of the deposited data

How the results depend on the processing

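Of 65 recalculations of 7 values under other settings, 48 stayed within 1.5 times (the number of regions) or within the interval of the reported value, and 17 did not. A minimum score of 150 in the Q111 heat shock list left 95 regions, 7.31% of its peaks, with a median width of 428 bases, a median distance of 138138 bases to a Q7 peak and 12.6% within 10 kb. Trimming the Q7 heat shock list to the length of the Q111 list gave 717 regions, 34.4% of Q111 peaks, a median percentile of 25.8, a median distance of 230727 bases and 7.39% within 10 kb, since fewer Q7 peaks remained. A minimum score of 100 in all lists gave a share of 15.7% and a median distance of 112105 bases. Removing dense peaks from every list gave 414 regions, a share of 20.4% and a percentile of 24.1. That step also removed Q7 peaks, so Q111 peaks that had overlapped them became Q111-only by construction. Distance limits moved the counts by construction, to 12.2% within 5 kb and 24.7% within 20 kb of a Q7 peak, and to 7.20% within 50 kb of another Q111-only region. Merging peaks up to 500 or 1000 bases apart gave 352 and 348 regions. For the other shifts the cause was not tested. No paired analysis was possible because each group holds 1 library. Depth is unknown, so a Q7 peak that is missing from its list cannot be told apart from one below its threshold.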

Other observations

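Outside the 361 regions, 13 Q111 heat shock peaks also lacked a Q7 heat shock peak but overlapped a peak at 33 °C. In 12 of these regions the 33 °C peak was of Q111 cells alone, in 1 of both lines, and in 0 of Q7 cells alone. Their scores in the Q111 heat shock list ran from 95.3 to 366 with a median of 141. The highest lay at chr14:76273294-76273900, where the Q111 peak at 33 °C scored 112. The region with a 33 °C peak of both lines was at chr4:151699432-151700033, with 33 °C scores of 319 in the Q111 and 106 in the Q7 list. In the region at chr8:113154157-113155374 the Q111 peak scored 417 at 33 °C and 103 at 42 °C, each within its own list.

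The chromosome 13 window held 6 further regions with a Q111 heat shock peak alone, scoring from 97.8 to 283. All 6 lay within 8 kb of a Q7 heat shock peak, the nearest at 130 bases (23591853 to 23592152) and the farthest at 7585 bases (21359483 to 21359741). Among the 361 regions outside it, 82, or 22.7%, had a score that another Q111 heat shock peak also had, against 23.2% of the whole list. The score of 117.57 was held by 4 Q111-only regions and 8 peaks in all, and 3 of the 5 narrowest regions were among them.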
